A study of Homo sapiens with 6 samples.

Results

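The 10 genes described here encode the AP-1 transcription factor subunits FOS, FOSB, FOSL1, FOSL2, JUN, JUNB and JUND, the related factor ATF3, and the immediate early factors EGR1 and IER2. They were taken by symbol from a table of 58735 genes, and all 10 were found in it. The table came from RNA-seq of HCT116, a human colorectal carcinoma cell line, with 3 libraries of control-transfected cells (CTR) and 3 libraries of cells transfected with miR-8485 mimics. Mimics are synthetic copies of a mature miRNA and were given at 50 nM. By the general transfection methods of the study, cells were collected after 48 h unless another time was stated, and no time is stated for the RNA-seq itself. The labels give CTR cells as WT and the others by the mimics alone, with no further allele or agent. Each group had 3 independent biological replicates, and the sources used here give no sequence or dose for the control transfection. Values are FPKM, that is fragments scaled to the length of the gene and the depth of the library, so levels of different genes can be set side by side, but a global loss or gain of RNA in the cells would not show.

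AP-1 is a dimer of proteins with a basic region and a leucine zipper (bZIP). Fos proteins pair with Jun proteins and bind DNA at TGACTCA, while Jun proteins can also pair with each other or with ATF proteins. Immediate early genes are switched on by growth factors, serum or stress through MAP kinases without new protein synthesis, and many of their mRNAs are short-lived. In colorectal cancer cells, AP-1 is known as an output of growth factor signaling. The epithelial origin was visible in the libraries, since 6 of 9 markers of colorectal epithelial cells had a mean of at least 1 FPKM, but VIL1, CDX1 and LGALS4 were at or near 0. The summed level of these 9 markers was 2613 to 2838 FPKM in CTR and 1751 to 1838 FPKM in miR-8485. Most of this sum was keratin, with means in CTR and miR-8485 of 848 and 552 FPKM for KRT8, 572 and 292 FPKM for KRT18 and 1147 and 768 FPKM for KRT19. The means were 135 and 130.3 FPKM for EPCAM, 19.7 and 19.0 FPKM for CDH1 and 16.0 and 28.2 FPKM for CDX2, so the markers did not move together. Among markers of other cells, none of 5 immune and none of 3 endothelial genes reached 1 FPKM, and of 6 fibroblast genes only COL1A1 did. The fibroblast sum was 4.30 to 4.53 FPKM in CTR and 6.36 to 6.53 FPKM in miR-8485, and the part of these markers in the results was not tested.

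A miRNA recognizes mRNAs mainly through its seed, bases 2 to 8. The mimic is shown because its seed defines the match searched in the 3′ UTRs of the 10 genes, with the seed in capitals.
miR-8485 mimic: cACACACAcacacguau
The match to this seed is TGTGTGT. In the longest annotated 3′ UTR (GENCODE release 44 on GRCh38), 5 of the 10 genes held at least 1 copy, whereas 30.2% of the 10673 tested genes with an annotated 3′ UTR did. JUND held 5 overlapping copies in 747 bases, FOSB 3 copies in 2167 bases, FOSL2 3 copies in 4869 bases, JUNB 2 copies in 500 bases and ATF3 1 copy in 1220 bases. The 3′ UTRs of FOS, FOSL1, JUN, EGR1 and IER2 held 0 copies. Capitals mark the bases covered by copies of the match, each read 5′ to 3′ on the strand of the gene.
JUND, minus strand, chr19:18279961-18279989: cgttggtTGTGTGTGTGTGTGTtttcttg
FOSB, plus strand, chr19:45474606-45474630: atatggaTGTGTGTGTGTgcgtgcg
FOSL2, plus strand, chr2:28416118-28416140: gttgggcTGTGTGTGTgcgcatg
FOSL2, plus strand, chr2:28416132-28416152: gtgcgcaTGTGTGTatacatt
JUNB, plus strand, chr19:12793247-12793269: ttgtgttTGTGTGTGTttgttct
ATF3, plus strand, chr1:212620045-212620065: cagaaatTGTGTGTgcaagaa
Counting in the 3′ UTR of the canonical transcript gave the same number of copies for each of the 10 genes. These matches are descriptions of the sequence, and which 3′ UTRs the cells used was not measured.

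The levels of the 10 genes in CTR spanned from below 1 FPKM for FOSB to about 91.2 FPKM for JUND. JUND, with 91.2 ± 6.96 FPKM (SD, n = 3), and JUNB, with 90.5 ± 7.65 FPKM (SD, n = 3), were the most abundant, and their libraries overlapped. FOSL1, EGR1, IER2 and FOSL2 followed with means of 51.5, 36.4, 22.7 and 19.0 FPKM, each separated from its neighbor in every library. ATF3, with 8.41 ± 0.368 FPKM (SD, n = 3), and JUN, with 8.20 ± 0.603 FPKM (SD, n = 3), overlapped again, and FOS and FOSB were the lowest. The order was different in miR-8485, where EGR1 moved from the fourth to the seventh place, below ATF3. EGR1 and JUN overlapped in miR-8485, while JUND and JUNB were separated. FPKM depends on the gene length used by the authors, and for ATF3 this was 4040 bases against 1940 bases of the canonical mRNA. Per base of the canonical mRNA, ATF3 would stand at 17.5 FPKM in CTR and IER2 at 33.0 FPKM, while EGR1 would remain at 36.4 FPKM.

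**Figure D1:**
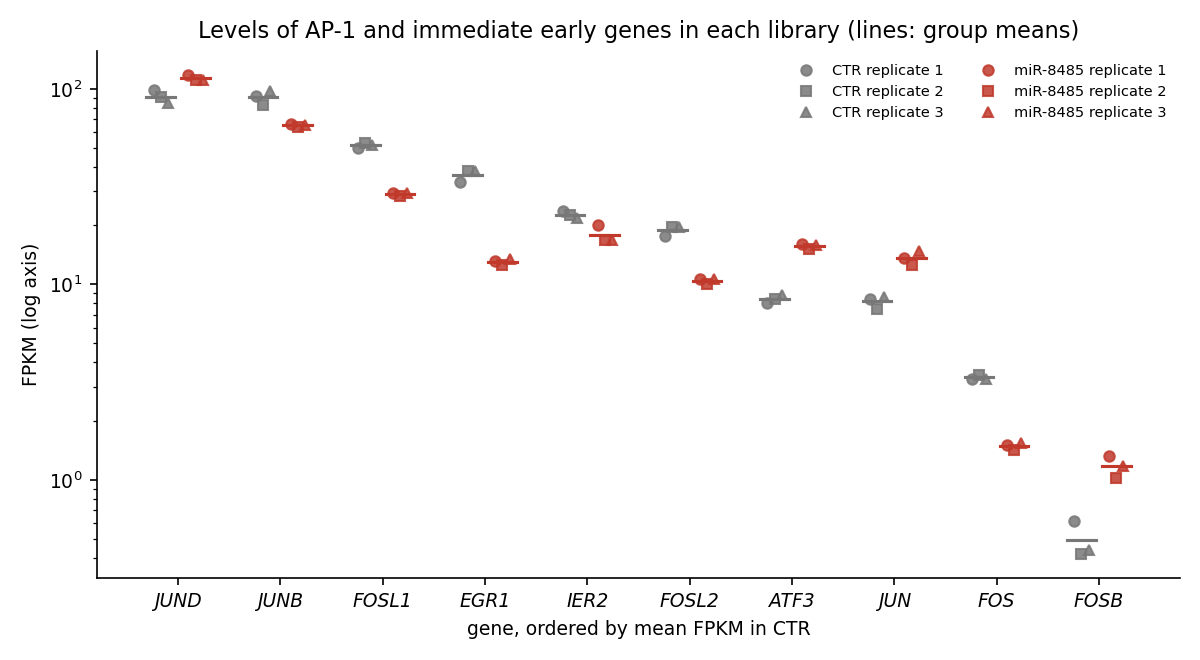
FPKM on a log axis of the 10 genes in each library, with CTR in gray and miR-8485 in red, symbols for replicates and lines for group means. The 2 groups of libraries do not overlap for any of the 10 genes, and EGR1 falls from 36.4 to 13.1 FPKM while ATF3 rises from 8.41 to 15.8 FPKM.

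To ask how the mimic changed these genes, log2(FPKM + 0.1) was compared between the groups with limma over the 12349 genes that averaged 1 FPKM or more, with Benjamini-Hochberg adjustment and a threshold of 0.05 on the adjusted p. Of the 10 genes, 6 were downregulated in miR-8485, namely EGR1, FOS, FOSL2, FOSL1, JUNB and IER2, and 4 were upregulated, namely FOSB, ATF3, JUN and JUND. FOSB had a mean below 1 FPKM and was therefore fitted with all 31768 genes above 0. The other 9 genes exceeded 1 FPKM in both groups. Changes were common in these libraries. Of all tested genes 59.6% passed the threshold, 30.5% downregulated and 29.1% upregulated, and in the fit of all genes above 0, 10.8% were upregulated. For all 10 genes the libraries of the 2 groups did not overlap, which held for 66.5% of the tested genes (34.0% lower and 32.5% higher in miR-8485) and 34.6% of the genes above 0. The median absolute log2 fold change was 0.83 for the 9 tested genes and 0.33 for all tested genes. The 10 genes were chosen with earlier results of these data known, so this comparison cannot show that they changed more than usual. The median signed log2 fold change was -0.48 for these 9 genes and -0.00406 for all tested genes. In bulk RNA, a smaller number of cells with an mRNA and less of it per cell cannot be told apart. The balance of directions over the whole table depended on scaling, since 48.8% of the calls were upregulated with FPKM as deposited and 35.6% after rescaling to TPM, which moved the median of all tested genes to -0.12. None of the 10 genes changed direction under TPM.

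**Figure D2:**
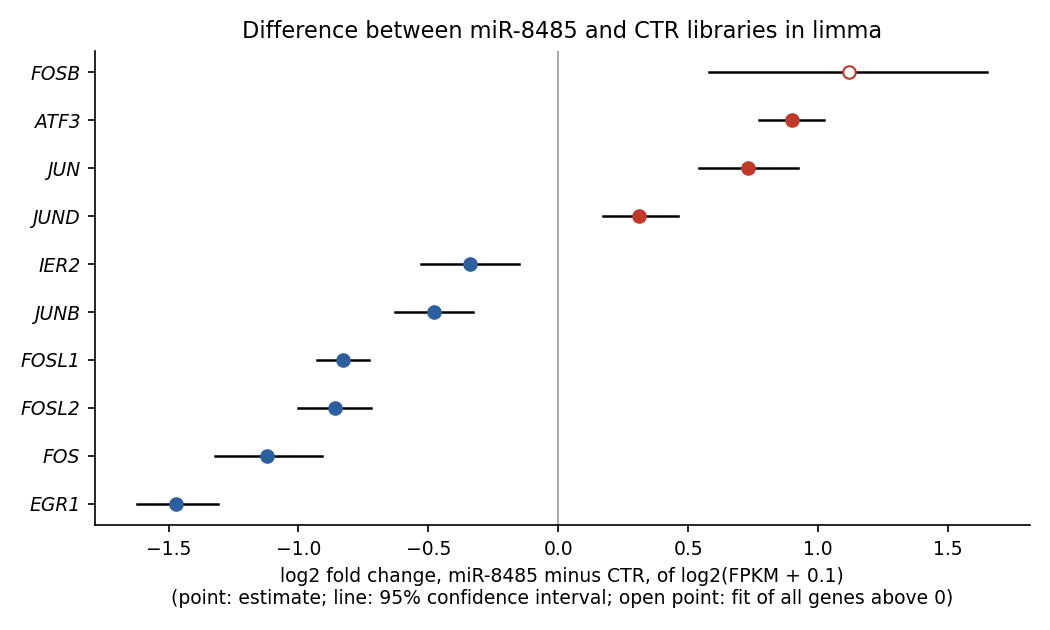
Log2 fold change of miR-8485 minus CTR on the log2(FPKM + 0.1) scale for each gene, with points for limma estimates and lines for 95% confidence intervals. Intervals of the 6 downregulated genes lie below 0, from EGR1 at -1.47 to IER2 at -0.34, and those of the 4 upregulated genes lie above 0, with the widest for FOSB.

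EGR1, a zinc finger factor induced by serum through MAP kinases and serum response factor, had the largest change among the 10 genes. Its position is chromosome 5 (hg38, plus strand) from 138465490 to 138469315. Its levels were 33.2, 37.9 and 38.0 FPKM in the CTR libraries and 13.2, 12.5 and 13.5 FPKM in the miR-8485 libraries. All miR-8485 libraries were far below all CTR libraries, and the mean fell by 64.0%. The log2 fold change was -1.47 (SE 0.07, Benjamini-Hochberg adjusted p of 4.3e-06 in limma), and 3.0% of the tested genes had a larger absolute change. IER2, a small nuclear protein of the immediate early response on chromosome 19 from 13150415 to 13154908, changed less. It had 23.7, 22.7 and 21.7 FPKM in CTR and 20.2, 16.9 and 16.8 FPKM in miR-8485. The highest miR-8485 library lay just below the lowest CTR library. Its log2 fold change was -0.34 (SE 0.08, limma adjusted p of 0.00750), and 48.5% of the tested genes changed more.

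Among the Fos genes, which cannot form homodimers and depend on Jun partners, FOSL1 was the most abundant. FOSL1 encodes FRA1, an AP-1 subunit that is typically maintained by sustained MAP kinase activity, and lies on chromosome 11, minus strand, from 65892049 to 65900573. It had 50, 53.1 and 51.3 FPKM in CTR and 29.4, 28.2 and 29.2 FPKM in miR-8485. The replicates were close to each other in both groups, and the mean fell by 43.8%. Its log2 fold change was -0.83 (SE 0.04, limma adjusted p of 7.9e-06). FOSL2, which encodes FRA2 and lies on chromosome 2 from 28392448 to 28417312, had 17.7, 19.7 and 19.6 FPKM in CTR and 10.6, 9.98 and 10.7 FPKM in miR-8485. Its log2 fold change of -0.86 (SE 0.06, limma adjusted p of 2.4e-05) lay within the confidence interval of FOSL1, from -0.93 to -0.73. The ratio of FOSL1 to FOSL2 was 2.71 ± 0.101 (SD, n = 3) in CTR and 2.77 ± 0.0503 (SD, n = 3) in miR-8485, with overlapping libraries.

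FOS and FOSB, the Fos genes with the sharpest response to stimulation, were low and changed in opposite directions. FOS, on chromosome 14 from 75278774 to 75282230, had 3.29, 3.45 and 3.28 FPKM in CTR and 1.5, 1.42 and 1.54 FPKM in miR-8485. These values rest on 192, 202 and 192 fragments in CTR and on 87, 83 and 95 in miR-8485. All 3 miR-8485 libraries were below CTR, with a log2 fold change of -1.12 (SE 0.09, limma adjusted p of 3.9e-05). FOSB, on chromosome 19 from 45467995 to 45475179, had 0.619, 0.418 and 0.438 FPKM in CTR and 1.33, 1.02 and 1.18 FPKM in miR-8485, from 62, 42 and 44 fragments to 133, 102 and 125. Its mean was 2.39 times that of CTR, and the log2 fold change was 1.12 (SE 0.22, limma adjusted p of 0.0131 over all genes above 0). This call was lost without CTR replicate 3, without miR-8485 replicate 1 or without miR-8485 replicate 3, with adjusted p of 0.0529, 0.0613 and 0.0597, while the log2 fold change stayed at or above 1.03. With a pseudocount of 1 in place of 0.1 the log2 fold change was 0.55 and stayed past the threshold. FOS exceeded FOSB 7.01 ± 1.52 times (SD, n = 3) in CTR and 1.27 ± 0.139 times (SD, n = 3) in miR-8485. The whole of FOSB lies within the annotated span of ERCC1 on the opposite strand, and the sources used here do not state whether fragments were counted by strand. ERCC1 had 9.04 FPKM in CTR and 7.70 FPKM in miR-8485. Whether fragments of ERCC1 were counted for FOSB was not tested.

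The Jun genes split in the other way, with JUN and JUND upregulated and JUNB downregulated. JUN, the founding member, which promotes proliferation and is phosphorylated by JNK, lies on chromosome 1, minus strand, from 58780788 to 58784327. It had 8.43, 7.51 and 8.65 FPKM in CTR and 13.7, 12.5 and 14.8 FPKM in miR-8485. Every miR-8485 library was above every CTR library, and the log2 fold change was 0.73 (SE 0.08, limma adjusted p of 2.2e-04). JUNB, which often opposes JUN in control of the cell cycle, lies on chromosome 19 from 12791496 to 12793315. It had 91.3, 82.5 and 97.7 FPKM in CTR and 66.0, 63.7 and 65.0 FPKM in miR-8485. Its spread was much wider in CTR than in miR-8485, and its log2 fold change was -0.48 (SE 0.06, limma adjusted p of 5.2e-04). JUNB lies within the annotated span of HOOK2 on the opposite strand, which had 10.3 FPKM in CTR and 15.1 FPKM in miR-8485. Whether fragments of HOOK2 were counted for JUNB was not tested.

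JUND, the Jun gene that is expressed most evenly across resting and growing cells, lies on chromosome 19, minus strand, from 18279760 to 18281622. It had 98.2, 91.2 and 84.3 FPKM in CTR and 118, 111 and 110.3 FPKM in miR-8485. The groups did not overlap, but the increase was the smallest of the 10 changes, with a log2 fold change of 0.31 (SE 0.06, limma adjusted p of 0.00380), and 51.8% of the tested genes changed more. Its longest transcript is 69.9% G and C, against a median of 48.5% over tested genes. With the trend against GC content removed, the log2 fold change was 0.08 (SE 0.05) and the call was lost (limma adjusted p of 0.181). JUNB and IER2, with 64.9% and 61.7% G and C, remained downregulated in that fit, with log2 fold changes of -0.63 and -0.45. For JUND the value was also lower with the gene length trend removed, at 0.16, and after rescaling to TPM, at 0.20, and both stayed past the threshold. Of the 5 genes with a copy of the seed match, JUND, FOSB and ATF3 were upregulated and FOSL2 and JUNB downregulated, and of the 5 genes with 0 copies, JUN was upregulated and EGR1, FOS, FOSL1 and IER2 downregulated.

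ATF3, a stress-induced bZIP factor that pairs with Jun proteins and often represses transcription, was upregulated. Its position is chromosome 1, plus strand, from 212565334 to 212620777, and it had 8.03, 8.43 and 8.77 FPKM in CTR and 16.1, 15.2 and 15.9 FPKM in miR-8485. Its mean was 1.87 times that of CTR, with tight replicates in both groups, and the log2 fold change was 0.90 (SE 0.05, limma adjusted p of 1.2e-05). EGR1 exceeded ATF3 in every CTR library, with a ratio of 4.33 ± 0.181 (SD, n = 3), and was below it in every miR-8485 library, with a ratio of 0.831 ± 0.0147 (SD, n = 3).

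Since AP-1 works as a dimer, the levels were also summed by family, as a description without a test. The summed level of the 4 Fos genes was 71.6, 76.7 and 74.6 FPKM in CTR and 42.8, 40.6 and 42.6 FPKM in miR-8485. FOSL1 made up 69.3% ± 0.506 of this sum (SD, n = 3) in CTR and 68.8% ± 0.511 (SD, n = 3) in miR-8485, so that its share overlapped between the groups. FOSB had a share of 0.666% in CTR and 2.80% in miR-8485, and FOS a share of 4.49% and 3.53%. The sum of the 3 Jun genes was 198, 181 and 191 FPKM in CTR and 198, 187 and 190.1 FPKM in miR-8485. The Jun sums overlapped between the groups also after rescaling to TPM, at 572 ± 39.7 TPM (SD, n = 3) and 532 ± 11.6 TPM (SD, n = 3), and after median-of-ratios scaling, though the difference had the opposite sign under TPM. Within the Jun sum, JUNB went from 47.6% ± 3.15 (SD, n = 3) to 33.8% ± 0.482 (SD, n = 3) and JUND from 48% ± 3.35 (SD, n = 3) to 59.0% ± 0.915 (SD, n = 3). JUN went from 4.31% to 7.11%. The ratio of the Jun sum to the Fos sum was 2.77, 2.36 and 2.56 in CTR and 4.62, 4.61 and 4.46 in miR-8485. These are mRNA levels, and neither protein nor dimers were measured.

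**Figure D3:**
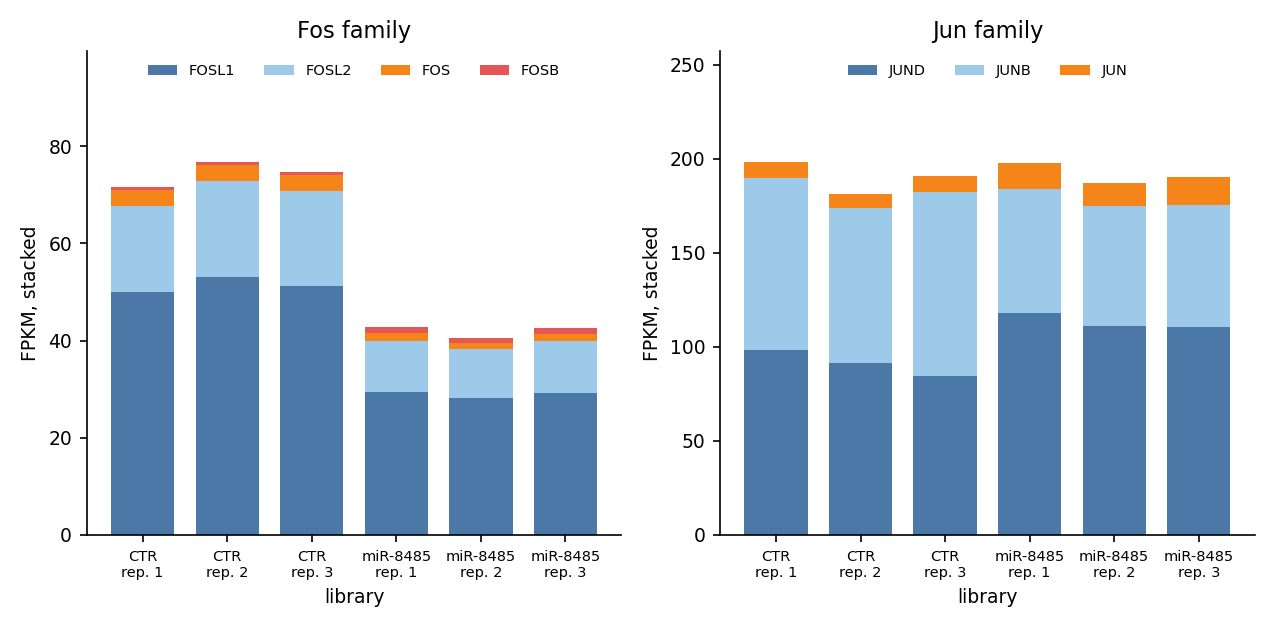
Stacked FPKM of the Fos genes (left) and the Jun genes (right) in each library, with a color for each gene. The Fos sum is 71.6 to 76.7 FPKM in CTR and 40.6 to 42.8 FPKM in miR-8485, while the Jun sum stays between 181 and 198 FPKM and shifts from JUNB toward JUND and JUN.

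Immediate early genes can respond to handling, so the spread between replicates was examined. The SD within groups on the log2 scale was 0.04 for FOSL1, 0.05 for FOS and ATF3, 0.12 for IER2 and 0.22 for FOSB, with a median of 0.10 over all tested genes. It was at or below this median for 7 of the 10 genes. In miR-8485 replicate 1 all 10 genes were above their group mean, and in miR-8485 replicate 2 all 10 were below it, whereas 51.5% and 48.5% of all tested genes were above their group mean in these libraries. Apart from FOSB, no gene deviated by more than 0.17 in any library. The CTR libraries showed no common direction, with 5, 7 and 5 of the 10 genes above the mean. The 10 genes share each library, so these deviations are not independent of each other.

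**Figure D4:**
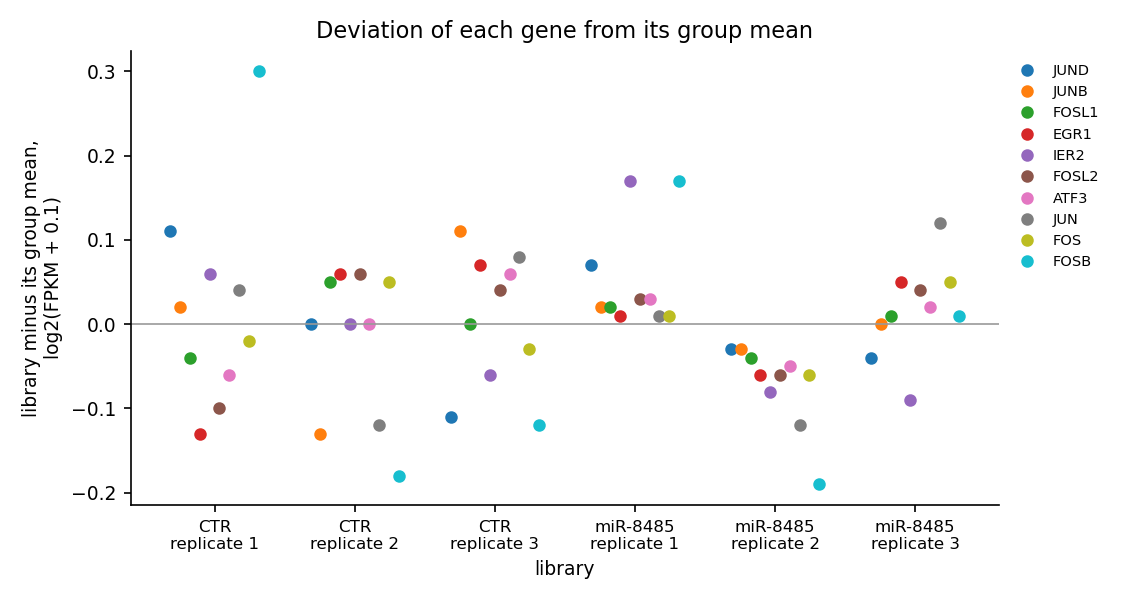
Deviation of each gene from its group mean on the log2(FPKM + 0.1) scale, in each of the 6 libraries, with a color for each gene. All points lie above 0 in miR-8485 replicate 1 and below 0 in miR-8485 replicate 2, and the largest deviation is that of FOSB in CTR replicate 1, at 0.30.

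For the regulatory DNA of the 10 genes, promoter windows from RefSeq (GRCh38.p14, 250 bases before to 50 bases after the start site) were searched on both strands, and all 10 genes were matched. The CArG box, which binds serum response factor, was found in 1 of the 10 windows and in 1.29% of 35116 windows of the same length, or 1.08% of the 12695 windows of tested genes. That window was EGR1, with 2 boxes shown in capitals because this factor is known to act on EGR1 in the serum response.
EGR1, plus strand, chr5:138465369-138465388: tcctgCCATATTAGGgcttc
EGR1, plus strand, chr5:138465391-138465410: gcttcCCATATATGGccatg
The motif TGACATCA, a variant of the AP-1 and ATF site, was found in 2 of the 10 windows, in 2.61% of all windows and in 1.43% of those of tested genes. These were JUN and ATF3, shown with the motif in capitals. TGACTCA was found in 1 window (FOSL2), against 4.95% of all and 3.47% of those of tested genes, and TGACGTCA in 1 window (JUND), against 1.85% and 2.94%.
JUN, minus strand, chr1:58784097-58784124: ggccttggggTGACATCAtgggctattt
ATF3, plus strand, chr1:212565274-212565301: acctatgataTGACATCAtatggccact
The 4 motifs do not contain each other. Binding was not measured, and motifs outside these windows were not searched. The 3′ UTRs were also searched for ATTTA, the core of AU-rich elements that mark short-lived mRNAs. FOSL2 held 9 copies, FOS 5 copies, FOSB, JUN and ATF3 3 copies each, JUNB 2 copies, and FOSL1, JUND and EGR1 1 copy each, while IER2 held 0. At least 1 copy was present in 74.0% of tested genes and at least 3 copies in 47.5%, so the 5 genes with 3 or more copies were close to the background.

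To place the 10 genes in their pathway, 6 lists of genes grouped by function were examined. The lists were chosen with earlier results of these data known. Their shares therefore cannot show that the listed genes changed more than usual. Among 32 known AP-1 target genes, 23 were tested. Of these 21 were downregulated (91.3%, against 30.5% of all tested genes), 2 did not pass the threshold and 0 were upregulated, with a median log2 fold change of -0.81. No target gene was higher at an unadjusted p under 0.05 in limma, and voom, limma's test for counts, called 0 upregulated as well. CCND1, which encodes cyclin D1, fell most. It averaged 216 ± 7.21 FPKM in CTR and 23.7 ± 1.69 FPKM in miR-8485 (SD, n = 3 each), with a log2 fold change of -3.18 (SE 0.06, limma adjusted p of 4.1e-07). HMGA1, an architectural chromatin protein, and ITGA2, the integrin alpha-2 subunit, had log2 fold changes of -1.55 and -1.45. Many of these genes answer to other factors as well, and the list does not show which factor acted on them.

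Among 27 other immediate early genes, 22 were tested, of which 16 were downregulated (72.7%, against 30.5% of all tested genes) and 3 upregulated (13.6%, against 29.1%), with a median log2 fold change of -0.67. SGK1, a kinase induced by serum and glucocorticoids, KLF2, a zinc finger factor, and CCN2, a secreted matricellular protein, fell most, with log2 fold changes of -2.03, -1.97 and -1.21. SGK1 averaged 2.81 FPKM in CTR and 0.615 FPKM in miR-8485, and CCN2 2.44 FPKM in CTR and 0.991 FPKM in miR-8485. Both thus passed the filter on the mean of all libraries only through their levels in CTR. In the other direction, CCN1, a relative of CCN2, averaged 4.47 ± 0.400 FPKM in CTR and 13.2 ± 0.554 FPKM in miR-8485 (SD, n = 3 each), with a log2 fold change of 1.55 (SE 0.08, limma adjusted p of 6.5e-06). BTG2, an antiproliferative gene, and DUSP1, a phosphatase of MAP kinases, rose with log2 fold changes of 0.73 and 0.39. The rise of DUSP1 was near the threshold (SE 0.12, limma adjusted p of 0.0264). Its lowest miR-8485 library had 7.59 FPKM and its highest CTR library 7.47 FPKM. After rescaling to TPM, 2 genes of this list were upregulated instead of 3. Both directions thus occurred among these genes as among the 10 AP-1 and immediate early factors. Among genes that passed the filter, 3 of 22 were upregulated here and 3 of 9 among those factors. FOSB, also upregulated, was below the filter. With so few genes these shares are not set apart.

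All 12 upstream factors and co-factors were tested, with 7 downregulated (58.3%, against 30.5% of all tested genes) and 0 upregulated and a median log2 fold change of -0.39, where limma at an unadjusted p under 0.05 and voom also gave 0 upregulated. ATF1, a relative of CREB, EP300, a histone acetyltransferase that acts as a co-activator of AP-1, and ELK3, a partner of serum response factor, fell most, with log2 fold changes of -1.73, -1.12 and -0.99. SRF, the gene of serum response factor itself, was looked at after its values were seen because of the CArG boxes of EGR1. It went from 13.1 FPKM to 6.62 FPKM, a log2 fold change of -0.98. A link between this change and that of EGR1 was not tested. Of 14 bZIP partners of AP-1 proteins 8 were tested, and 3 were downregulated (37.5%, near the 30.5% of all tested genes), with a median log2 fold change of -0.00239. MAFA, MAFG and MAFF, small and large Maf factors, were downregulated with log2 fold changes of -0.90, -0.88 and -0.52, and 0 were upregulated in limma, against 1 at an unadjusted p under 0.05 and 1 in voom.

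The list of MAP kinase genes held MAPK, MAP2K and RPS6KA genes and MAP3K1, of pathways that carry signals to AP-1. Of its 23 genes, 20 were tested. Of these 8 were downregulated (40%) and 5 upregulated (25.0%), near the 30.5% and 29.1% of all tested genes, with a median log2 fold change of -0.12. MAPK9, which encodes JNK2, and MAP2K4, a kinase of JNK, were among those that fell, with log2 fold changes of -0.59 and -0.46. MAPK13, a p38 kinase, rose with a log2 fold change of 0.38, and MAP2K5 and MAP2K7 with 0.36 each. After rescaling to TPM, 3 MAP kinase genes were upregulated instead of 5, and 10 were downregulated instead of 8. Among 8 proteins that bind AU-rich elements, all were tested, 4 were downregulated (50%) and 2 upregulated (25.0%), with a median log2 fold change of -0.16. With so few genes these shares are not set apart from the 30.5% and 29.1% of all tested genes. ZFP36, which promotes decay of such mRNAs and is itself an immediate early gene counted in both lists, averaged 34.2 ± 2.08 FPKM in CTR and 19.6 ± 1.32 FPKM in miR-8485 (SD, n = 3 each), a log2 fold change of -0.80. HNRNPD and TIAL1 had log2 fold changes of -0.60 and -0.57, and ZFP36L2 and TIA1 rose with log2 fold changes of 0.39 and 0.32.

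**Figure D5:**
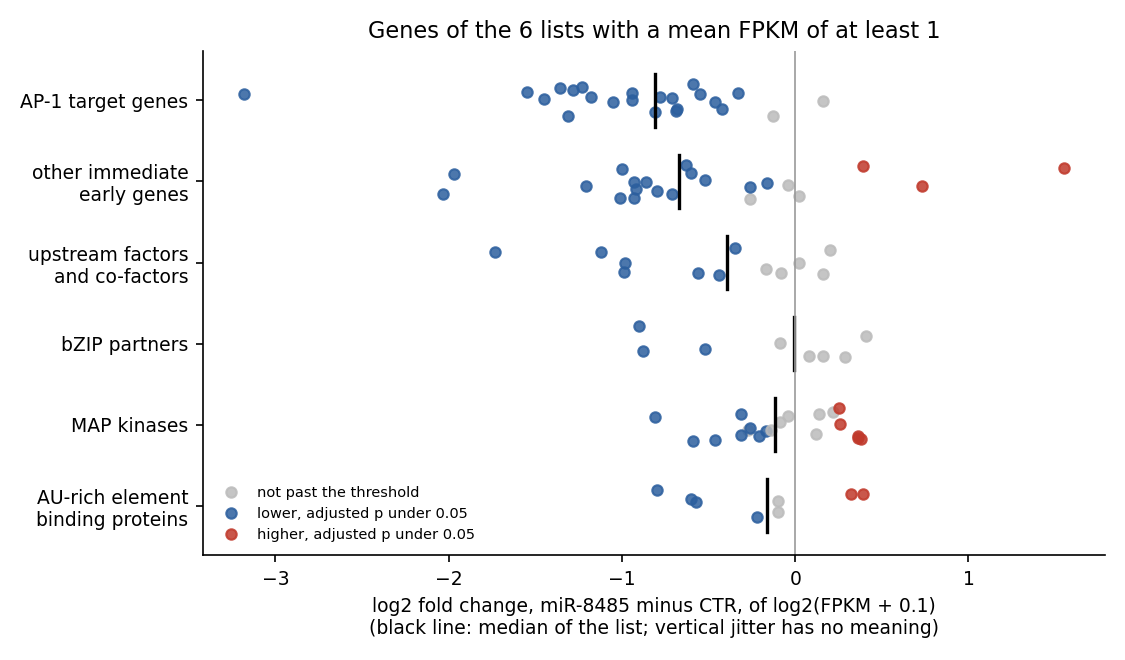
Log2 fold changes of miR-8485 minus CTR for the tested genes of the 6 lists, with 1 point for each gene, colors for the limma call and black lines for list medians. Of 23 AP-1 target genes, 21 lie on the downregulated side of the threshold, with CCND1 at -3.18, while genes of the MAP kinase list lie on both sides.

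The genes whose pattern was most like that of EGR1 over the 6 libraries were DCTN1, ITPK1 and CD109, with Pearson correlations of log2(FPKM + 0.1) of 0.9998, 0.9998 and 0.9997 among 10720 protein-coding genes. The correlation is a description that mostly reflects the difference between the 2 groups. DCTN1 fell from 9.93 to 4.77 FPKM, ITPK1 from 15.9 to 6.23 FPKM and CD109 from 15.3 to 8.74 FPKM.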

How the data were processed

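RNA-seq was analyzed for 3 CTR and 3 miR-8485 libraries of HCT116 cells, grouped by the sample titles. Per the methods and the submitters' processing notes, the authors used fastp for trimming, HISAT2 (2.0.5) for mapping to hg38, featureCounts (1.5.0-p3) for counting and DESeq2 for testing. The strand setting and annotation are not given in the sources used here. The values deposited by the authors were FPKM, with no further scaling between libraries, and 0 value columns were left unassigned. In each library 100% of values above 0 came out as whole fragments (within 0.01) after undoing the scaling, for 17473874 to 18480047 fragments on listed genes.

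The main test was two-sided, in limma 3.58.1 (R 4.3.3) with the prior variance following the mean, on log2(FPKM + 0.1), for genes with a mean of at least 1 FPKM. P-values were adjusted by Benjamini-Hochberg over all genes of a fit, and FOSB was taken from a fit of all genes above 0. A change on this scale understates that of low genes. Other steps used Python 3.11.15, numpy 2.4.6, pandas 2.3.3 and matplotlib 3.10.9. The tests were checked on simulated data. 3′ UTRs came from GENCODE release 44, whose gene coordinates differed from the table by up to 3943 bases (JUN). Of the tested genes 12298 had a GC content. The members and lists were chosen with earlier results of these data known. PLAU was left out of the target list because its change was known. Genes named from each list were the 3 largest rises and 3 largest falls among calls without overlap, and for EGR1, the member with the largest change, the 3 protein-coding genes most correlated with it. The alternatives were other pseudocounts (1 and 0.01), filters (none, or at least 5 FPKM), scalings, removal of trends against length and GC content, no variance trend, voom on recovered fragments, a replicate block and each library left out. Family sums under other scalings and levels per canonical mRNA were added after the data were seen. One gene that this rule names is not reported here.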

Additional observations from a re-analysis of the deposited data

How the results depend on the processing

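Over 12 other settings and each library left out in turn, 177 alternative values were obtained for the 10 genes. No direction reversed, 173 stayed past the threshold and 4 did not. The 4 were JUND with the GC content trend removed (log2 fold change 0.08, adjusted p = 0.181 in limma) and FOSB without CTR replicate 3, miR-8485 replicate 1 or miR-8485 replicate 3, with FOSB between 1.03 and 1.27 over the libraries left out. FOSB had a log2 fold change of 0.55 with a pseudocount of 1. The cause was not tested. FOS could not be tested at a mean of at least 5 FPKM, nor could FOSB, whose reported value already comes from the fit without a filter. Among the lists, 1 bZIP partner was upregulated, instead of 0, with the gene length trend removed, in voom and without miR-8485 replicate 2 (0 to 1 over the libraries left out), 4 upstream factors were downregulated, instead of 7, at a mean of at least 5 FPKM, 3 MAP kinase genes were upregulated after rescaling to TPM, and 1 AP-1 target was upregulated without CTR replicate 1 (0 to 1). The filter at 5 FPKM tests fewer genes, and it left 2303 upregulated and 2417 downregulated genes over the whole table, against 3593 and 3769. With the replicate number as a block, all 10 calls held, with log2 fold changes from -1.47 for EGR1 to 1.12 for FOSB and FOSB at an adjusted p of 0.0283 in limma. Same-numbered libraries did not deviate together (correlations of 0.07, 0.03 and -0.06), but this cannot show whether the samples were prepared in pairs. Depth is lowest for FOSB, with 42 to 62 fragments per CTR library, and for FOS, with 83 to 95 per miR-8485 library.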
